A study of Mus musculus with 11 samples.

Results

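H3K27me3 is written by Polycomb repressive complex 2, in which Ezh2 or its paralog Ezh1 is the catalytic subunit and Suz12 is a core subunit that holds the complex together, and it is removed by demethylases such as Kdm6b, also known as Jmjd3. Ezh2 is typically abundant in dividing cells, whereas Ezh1 is also found in resting and differentiated cells. H3K4me3, H3K36me3 and H3K27me3 were read at the genes that encode these proteins. The first is commonly found at active or poised promoters, the second along the bodies of transcribed genes, and the last at genes silenced by Polycomb, where its overlap with H3K4me3 is called bivalent.

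The members were the 4 genes Ezh2, Ezh1, Suz12 and Kdm6b, chosen by name, and all peaks that shared at least 1 bp with a fixed window around each gene were taken. In the mouse build mm9, the one the peak lists use, the windows were chr6:47470000-47556000 for Ezh2, chr11:101042000-101098000 for Ezh1, chr11:79796000-79852000 for Suz12 and chr11:69202000-69238000 for Kdm6b, with lengths of 86, 56, 56 and 36 kb. They held 56 of the 212879 peaks in the 8 lists. Quiescent satellite cells (QSCs), the resting stem cells of skeletal muscle, were sorted as VCAM+, CD31-, CD45- and Sca1- cells from hindlimb muscles of male C57BL/6 mice aged 2 to 3 months (young) or 22 to 24 months (old), all of them uninjured. For activated satellite cells (ASCs), QSCs of young mice were kept for 3 days on a matrix-coated surface in medium with horse serum, according to the sample descriptions, whereas the paper speaks of cells activated in injured muscle. H3K4me3 and H3K27me3 were profiled in all 3 cell states and H3K36me3 in young QSCs and young ASCs, each in 1 library, so no difference given here has a replicate check and none was tested. The sorted identity of the cells was not checked against marker genes, because gene positions in mm9 were not used here beyond these windows.

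The score of a peak is -10 times the base-10 logarithm of the p-value that the peak caller MACS gave it, from 50 upward, and it rests on the depth of the library and its input, which is unknown. Scores are therefore compared within a list only, as the share of that list with a lower score. Many H3K4me3 peaks sat at or above a score of 3100, called the cap here. They made up 14.3% of the young QSC list, 31.6% of the young ASC list and 23.3% of the old QSC list. Some scores ran past it, to 3233 in each H3K4me3 list, so no order in strength was read among peaks at or above the cap. A gene without a peak had no region past the authors' threshold in that library, which is not the same as no mark.

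The promoters are shown because the strongest H3K4me3 peaks lay towards the ends of the windows at which 3 of the genes begin. RefSeq sequences of the build GRCm38.p6 were held for Ezh2 (minus strand), Ezh1 (minus strand) and Suz12 (plus strand), and not for Kdm6b. The 250 bases before the annotated start are given 5′ to 3′ on the gene's strand, with CpG dinucleotides, which are dense in most promoters that carry H3K4me3, in capitals.
Ezh2: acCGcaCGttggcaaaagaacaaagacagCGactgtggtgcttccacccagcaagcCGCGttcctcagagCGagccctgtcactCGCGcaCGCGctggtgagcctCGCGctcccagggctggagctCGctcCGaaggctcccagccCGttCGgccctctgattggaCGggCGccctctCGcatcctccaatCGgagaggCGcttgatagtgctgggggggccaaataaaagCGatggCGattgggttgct
Ezh1: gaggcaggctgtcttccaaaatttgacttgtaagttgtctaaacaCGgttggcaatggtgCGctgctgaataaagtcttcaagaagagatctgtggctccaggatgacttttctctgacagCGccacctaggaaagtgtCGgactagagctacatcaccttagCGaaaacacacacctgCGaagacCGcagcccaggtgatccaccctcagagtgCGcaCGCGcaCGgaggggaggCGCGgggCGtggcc
Suz12: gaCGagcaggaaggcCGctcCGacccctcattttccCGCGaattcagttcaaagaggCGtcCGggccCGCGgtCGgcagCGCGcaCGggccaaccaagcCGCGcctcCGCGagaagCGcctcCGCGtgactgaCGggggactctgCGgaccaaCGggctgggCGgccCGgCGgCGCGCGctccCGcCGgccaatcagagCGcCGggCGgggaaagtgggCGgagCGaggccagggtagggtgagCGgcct
Suz12 held 37 CpGs in this stretch, Ezh2 23 and Ezh1 14, against a median of 6 over all 32851 promoters in the table, of which 97.8%, 86.7% and 70.6% held fewer. Ezh1, with the fewest CpGs of the 3, also had the narrowest H3K4me3 peak in each cell state, as given below. Suz12, with the most CpGs, had a narrower peak than Ezh2 in each state, so the widths did not follow the order of the CpG counts. The E2F factors, which drive cell cycle genes, bind a consensus that takes the forms TTTGGCGC, TTTCCCGC, TTTGCCGC and TTTCGCGC, and these 4 words were searched on both strands of the 300 bases from 250 before to 50 after the start, a search chosen after the sequences were seen. Ezh2 held TTTGGCGC at bases 4 to 11 after the start, and Suz12 held TTTCCCGC at bases -219 to -212. Ezh1 held none of the words, and of all promoters 2.26% held at least 1 of them. Each of the 4 words contains a CpG, whereas that share is over promoters with a median of 6 CpGs. The share among promoters as rich in CpG as Ezh2 and Suz12 was not computed, so no excess was read from the matches. A match is a description of the letters and does not show a bound site.

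All 4 windows carried H3K4me3 in all 3 cell states, and none of the leading H3K4me3 peaks overlapped H3K27me3 in the same state. The leading peak was the highest-scoring H3K4me3 peak of the window in young QSCs and the peak at the same site in the other lists. Of all young QSC H3K4me3 peaks, 78.6% overlapped a peak in young ASCs and 80.5% a peak in old QSCs, against 4 of 4 leading peaks here. The leading peaks were picked for a high score, whereas this background counts peaks of any score, so nothing was read from the comparison. The map of the windows shows the layout for each gene.

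**Figure D1:**
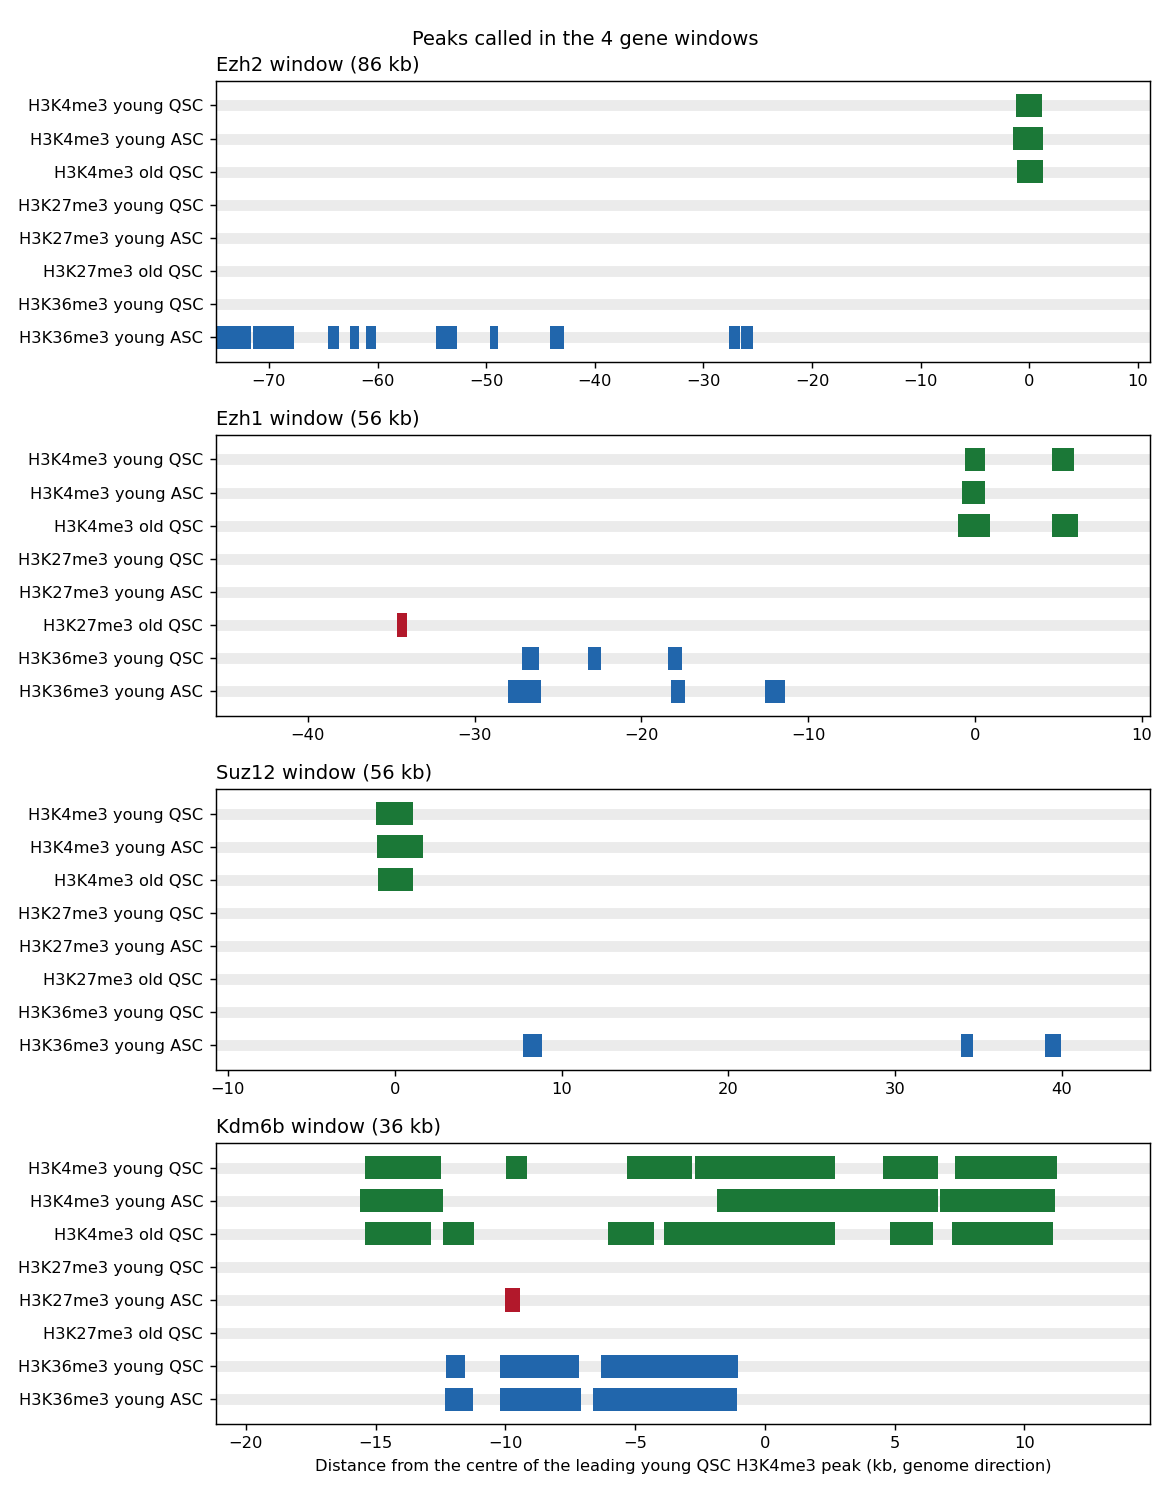
Peaks called in each of the 8 lists (rows) along the windows of Ezh2, Ezh1, Suz12 and Kdm6b, with distance in kb from the centre of the leading young QSC H3K4me3 peak on the horizontal axis and bars cut at the window's ends. Green is H3K4me3, red H3K27me3 and blue H3K36me3; the Ezh2 and Suz12 windows have H3K36me3 bars in young ASCs and none in young QSCs, and red bars appear in only 2 of the rows.

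At Ezh2, the catalytic subunit known from dividing cells, H3K4me3 formed a single peak that differed by 6 bp in width between young and old QSCs. It spanned chr6:47543684-47546099 in young QSCs, with a width of 2416 bp. In young ASCs the peak was 2792 bp wide, with 282 bp added at the low-coordinate end, which is the gene-body side of a gene on the minus strand, and 94 bp at the other end. In old QSCs it was 2410 bp wide. The score was 3100 in each of the 3 lists, so a difference in height above the cap could not be seen. Relative to its own list it was wide, with 89.3% of young QSC, 89.0% of young ASC and 87.4% of old QSC peaks narrower. A long noncoding RNA gene follows Ezh2 in the RefSeq gene order, so the peak may serve both genes.

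H3K36me3 was where the Ezh2 window differed between quiescence and activation. No H3K36me3 peak was called there in young QSCs, and 11 were called in young ASCs, covering 15.8 kb or 18.4% of the window. These peaks all lay on the low-coordinate side of the H3K4me3 peak, the side into which Ezh2 is transcribed. The strongest pair, with scores of 446 and 694, lay within the first 10 kb of the window, and the first of them crossed the window's end. This is the side of Cul1, a ubiquitin ligase subunit gene that precedes Ezh2 in the RefSeq gene order. Where Cul1 ends in mm9 was not determined. The other 9 peaks covered 8.88 kb between 10.4 and 49.5 kb from the window's start. They were small, from 724 to 1351 bp wide, and low in the ASC list, with scores from 52.9 to 197 and 6 of the 9 below 100. The largest score among them, 197 at chr6:47490286-47491463, exceeded 75.0% of the ASC list. With equal numbers of top-scoring peaks in the QSC and ASC lists, 3 of the 11 peaks and 8150 bp were left. The pair in the first 10 kb made up 6972 bp of this length and 1 other peak 1178 bp. With a score of at least 100 the length was 9896 bp. Which of the 11 peaks belong to Ezh2 rather than to Cul1 was not tested.

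Ezh1, the paralog also present in resting cells, had a narrower H3K4me3 peak than the other members in all 3 states. It spanned chr11:101086893-101088136 in young QSCs and was 1244 bp wide there, 1369 bp in young ASCs and 1902 bp in old QSCs. The young QSC peak was wider than 43.5% of its list and the old QSC peak wider than 72.2% of its list. The extra length in old QSCs lay on both sides, with 409 bp at the low-coordinate end and 249 bp at the high-coordinate end. The score was 2290 in young QSCs, 3100 in young ASCs and 2148 in old QSCs, which was above 76.8%, 68.4% and 66.9% of the respective lists. In young ASCs the peak stood at the cap, which 31.6% of that list reached or passed. Any peak at 3100 in that list has the share of 68.4%, so the shares do not show a lower rank in ASCs.

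A further H3K4me3 peak stood in the Ezh1 window in QSCs of both ages and was not called in ASCs. It was 1344 bp wide at chr11:101092111-101093454 in young QSCs and 1541 bp wide at chr11:101092130-101093670 in old QSCs. It lay 3974 bp from the leading peak in young QSCs and 3744 bp in old QSCs, on the side of Ramp2, a receptor-modifying membrane protein gene that follows Ezh1 in the gene order. Its score was above 32.6% of the young QSC list and 38.2% of the old QSC list, and whether it belongs to Ezh1 or to Ramp2 was not determined.

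H3K36me3 was called in the Ezh1 window in both young states, with 3 peaks each. The covered length was 2.67 kb in young QSCs and 4.01 kb in young ASCs, a log2 ratio of 0.59, while the whole H3K36me3 list of ASCs covered more of the genome than the QSC list by a log2 ratio of 1.27. The direction depended on the number of peaks kept, since with equal numbers of top-scoring peaks in both lists QSCs had 2669 bp and ASCs 1989 bp, a log2 ratio of -0.42. The QSC peaks were 790 to 1026 bp wide with scores from 58.0 to 86.7, and the ASC peaks 855 to 1989 bp wide with scores from 69.1 to 194. The QSC peaks at chr11:101060342-101061367 and chr11:101069109-101069961 overlapped ASC peaks, and the third did not. All 6 peaks lay on the gene-body side of the H3K4me3 peak. Ezh1 and Kdm6b were thus the members with H3K36me3 called in quiescence, and those at Ezh1 were low in their list.

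Suz12, the core subunit, resembled Ezh2 in its layout. Its single H3K4me3 peak spanned chr11:79805619-79807834 in young QSCs and was 2216 bp wide, against 2765 bp in young ASCs and 2125 bp in old QSCs. The score was 3100 in all 3 lists. The extra length in ASCs lay at the high-coordinate end, where 574 bp were added, which is the gene-body side of this gene on the plus strand, while 25 bp were missing at the other end. No H3K36me3 peak was called in young QSCs, and 3 were called in young ASCs, covering 2.74 kb. The first lay at chr11:79814424-79815529 with a score of 79.8, the second at chr11:79840678-79841372 with a score of 53.8 and the third at chr11:79845727-79846668 with a score of 128. With a score of at least 100, or with equal numbers of top-scoring peaks, the third alone was left and covered 942 bp. It lay 6.27 kb from the end of the window, on the side of Crlf3, the next gene in the order, so it may belong to either gene.

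Kdm6b, the demethylase, differed from the 3 Polycomb genes in the breadth of its H3K4me3. Peaks covered 17.7 kb of its 36 kb window in young QSCs, 16.2 kb in young ASCs and 17.6 kb in old QSCs, from 7, 4 and 6 peaks. The other windows had 1.37 to 3.44 kb of H3K4me3 in any state. Cyb5d1, Naa38 and Tmem88 precede Kdm6b in the RefSeq gene order, and a long noncoding RNA gene and Dnah2 follow it. How many of them lie within the window was not determined, so the peaks cannot all be assigned to Kdm6b.

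The leading peak of the Kdm6b window spanned chr11:69220458-69225865 in young QSCs and was 5408 bp wide, which exceeded 99.7% of that list. At the same site the peak was 4595 bp wide in young ASCs, wider than 97.9% of the list, and 6586 bp wide in old QSCs, wider than 99.8%. Its high-coordinate end moved by 31 bp in ASCs and 11 bp in old QSCs. The low-coordinate end moved more, by 844 bp inward in ASCs and by 1167 bp outward in old QSCs, where the peak took in a place that the young list held as a separate peak of 1060 bp with a score of 126. The score was 3100 at this site in all 3 lists. Another peak of the old QSC window, at chr11:69230365-69234265, had a score of 3118. Both scores are at or above the cap, so that peak was not read as the stronger.

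On activation the H3K4me3 of the Kdm6b window was arranged differently on the sides of this site. In young QSCs, weaker peaks stood on its low-coordinate side, at chr11:69213175-69213982, chr11:69217859-69219280 and chr11:69219291-69220350, with scores of 107, 59.0 and 126. In young ASCs this stretch held no H3K4me3 peak, and 10547 bp separated the leading peak from the next one in that direction. On the high-coordinate side, the gap to the next peak was 1847 bp in young QSCs, 2119 bp in old QSCs and 4 bp in young ASCs. The peak beyond that gap was 2130 bp wide in young QSCs, 3938 bp in young ASCs and 1638 bp in old QSCs. Its score was above 55.9%, 68.4% and 48.1% of the respective lists, and in ASCs it stood at the cap. Old QSCs, in contrast to young ASCs, also had peaks in the stretch on the low-coordinate side. The peak at chr11:69217136-69218876 had a width of 1741 bp and a score above 32.0% of its list. A weaker peak at chr11:69210759-69211948 had a width of 1190 bp and a score above 20.3% of the list.

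H3K36me3 at Kdm6b was strong in both young states and similar in length. The window had 3 peaks in each, covering 9.03 kb in young QSCs and 9.73 kb in young ASCs, a log2 ratio of 0.11. The widest spanned chr11:69216862-69222127 in young QSCs, with a score of 1337 that exceeded 99.7% of the list. In young ASCs it spanned chr11:69216532-69222083, with a score of 2477 that exceeded 99.9% of the list. The length marked by both H3K36me3 and H3K4me3 was 4960 bp in young QSCs, 55.0% of the H3K36me3 length, and 782 bp in young ASCs, 8.03% of it. Of the young QSC length, 808, 1422 and 1060 bp lay on weak H3K4me3 peaks, with scores of 107, 59.0 and 126. The leading H3K4me3 peak shared 1670 bp with H3K36me3 in young QSCs and 782 bp in young ASCs. The shared length was not recomputed under the alternative settings. In the other 3 windows H3K4me3 and H3K36me3 shared no base in either state.

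The widths of the leading H3K4me3 peaks were read against all H3K4me3 sites that were called once in each of the lists compared. Between young QSCs and young ASCs there were 17567 such sites, of which 61.6% (Wilson 95% interval 60.9% to 62.3%) were wider in ASCs, with a median log2 ratio of 0.11. Ezh2, Ezh1 and Suz12 were wider in ASCs, with log2 ratios of 0.21, 0.14 and 0.32, and Kdm6b was narrower, at -0.24. The sign at Kdm6b depended on how neighbouring peaks were joined, since the ratio was 0.71 when peaks less than 1 kb apart were merged, which joined the leading peak to neighbours in both states. These 4 values lay above 59.3%, 52.2%, 69.3% and 18.9% of the sites, all within the middle 90% of the distribution, which ran from -0.68 to 0.87. Between young and old QSCs there were 18717 sites, of which 66.1% (65.4% to 66.8%) were wider in old QSCs, with a median of 0.07. Ezh2 and Suz12 stayed close to 0, at -0.0036 and -0.060, whereas Kdm6b was at 0.28. Ezh1, at 0.61, lay above 96.2% of the sites and outside the middle 90%, which ran from -0.38 to 0.54. The old Kdm6b peak took the place of more than 1 young peak, so it is set beside these sites and is not itself among them. A single gene of 4 outside that range in one of the comparisons is a description, and with 1 library per state the spread of a width between replicates is unknown.

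**Figure D2:**
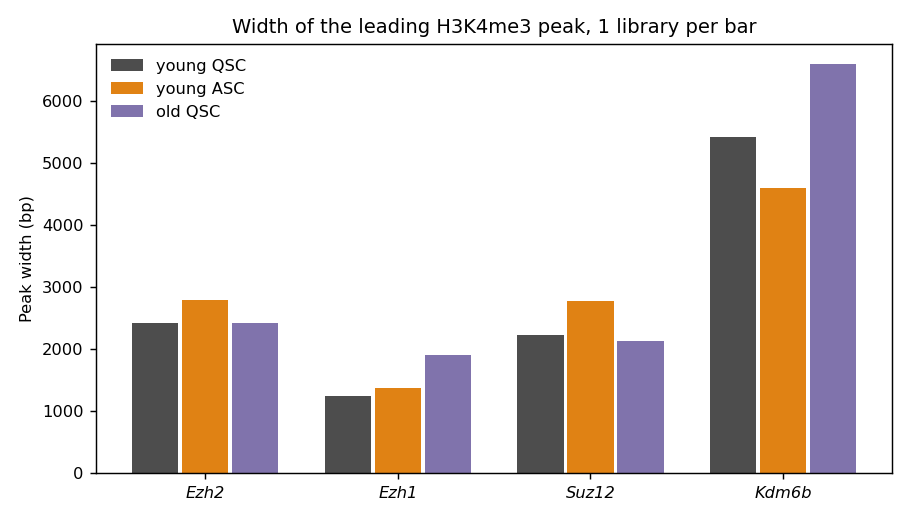
Width in bp of the leading H3K4me3 peak of each gene (bars, each from 1 library, so without error bars) in young QSCs, young ASCs and old QSCs. Kdm6b has the widest peak in each state, from 4595 to 6586 bp, and Ezh1 the narrowest, from 1244 to 1902 bp.

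**Figure D3:**
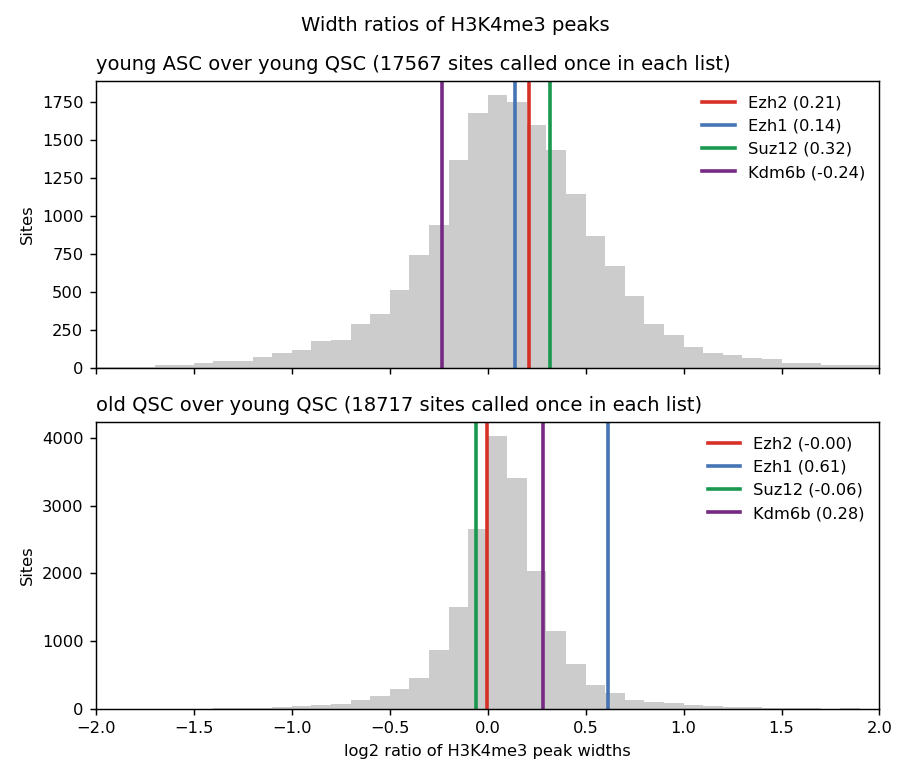
Histogram of the log2 ratio of H3K4me3 peak widths over all sites called once in each of the lists compared (grey, number of sites per bin of 0.1), for young ASCs (top) and old QSCs (bottom) over young QSCs, with a vertical line for each gene. In the lower panel Ezh1, at 0.61, is the line farthest to the right, and Ezh2 and Suz12 lie near 0.

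H3K27me3, the mark that these proteins write or remove, was called in the windows of their own genes in both young ASCs and old QSCs, with 1 small peak each. No H3K27me3 peak was called in any of the 4 windows in young QSCs. Young ASCs had 1, at Kdm6b, and old QSCs had 1, at Ezh1, so that 0, 1 and 1 of the 4 windows held the mark. Among genome tiles of 36, 56 and 86 kb with a shared H3K4me3 site, a background added after the data were seen, 25.4%, 28.6% and 32.7% held an H3K27me3 peak in young QSCs. The shares were 43.9%, 49.9% and 56.3% in young ASCs and 33.6%, 39.7% and 47.1% in old QSCs, and with 4 windows nothing particular to these genes was read from the counts. The Kdm6b peak spanned chr11:69213166-69213720, was 555 bp wide and had a score of 70.4, with 30.2% of the ASC list lower. It lay entirely on an H3K36me3 peak of ASCs and on no H3K4me3 peak of ASCs, at a place where young QSCs had a weak H3K4me3 peak. The Ezh1 peak in old QSCs spanned chr11:101052862-101053475, was 614 bp wide and had a score of 53.6, with 7.52% of the list lower. Its centre lay 34.3 kb from that of the young QSC H3K4me3 peak, on the side of the neighbouring gene Cntnap1, and it overlapped no other peak of old QSCs.

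Both of these peaks had a score under 100, and neither was left with a score of at least 100 or with equal numbers of top-scoring peaks. For comparison, 16057 H3K4me3 sites were called once in each of the 3 lists, and of these 16.6% (16.0% to 17.1%) overlapped H3K27me3 in young QSCs, 26.8% (26.1% to 27.5%) in young ASCs and 20.8% (20.2% to 21.4%) in old QSCs. Among the leading sites of the 4 genes the count was 0 in each state. The leading sites were picked for a high score, whereas the 16057 sites have any score. The Kdm6b site is not among the 16057, since its old QSC peak took the place of more than 1 young peak. With 4 sites, a count of 0 at such background shares says little about these genes in particular. The 4 genes thus had H3K4me3 without an overlapping H3K27me3 peak, and no bivalent site at their leading peak, in young and old quiescence and after activation.

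The covered length of H3K36me3 was also set against other loci, because the ASC list was the longer. Around the centres of the 16057 shared H3K4me3 sites, spans reaching 40 kb to each side had more H3K36me3 length in ASCs than in QSCs at 57.0%. Of the 6445 spans without H3K36me3 in QSCs, 37.4% (36.2% to 38.6%) had some in ASCs. Ezh2 and Suz12 were of this kind, with 2.15 kb in ASCs around Ezh2 and 8.14 kb around Suz12, which were above 75.5% and 93.1% of the 6445 spans. Against all 16057 sites, whatever they held in QSCs, the ASC lengths were above 43.6% and 65.9%, and the differences between ASCs and QSCs above 57.2% and 81.5%. Around Ezh1 the length was 2.67 kb in QSCs and 4.01 kb in ASCs, and around Kdm6b 10.0 kb in QSCs and 9.73 kb in ASCs, the latter a difference lower than that of most sites, with 16.7% below it. These spans reach past Suz12 into its neighbours and do not reach the far part of Ezh2.

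When the genome was instead cut into tiles as long as each window, a comparison added after the data were seen, 4737 of the 9590 tiles of 86 kb with a shared H3K4me3 site had no H3K36me3 in QSCs, and 33.2% of these had some in ASCs. The 15.8 kb of the Ezh2 window was above 98.6% of the 4737 and above 88.0% of all 9590 tiles in ASCs. With the first 10 kb, on the side of Cul1, left out, the length was above 94.6% of the 4737. For Suz12, 30.3% of the 6264 tiles of 56 kb without H3K36me3 in QSCs had some in ASCs, and its 2.74 kb was above 84.5% of them and above 62.6% of all 56 kb tiles in ASCs. Ezh1 lay above 80.7% of all 56 kb tiles in QSCs and 67.8% in ASCs, the latter a higher share than that of Suz12. Kdm6b lay high in both states, above 97.0% of all 36 kb tiles in QSCs and 90.6% in ASCs.

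**Figure D4:**
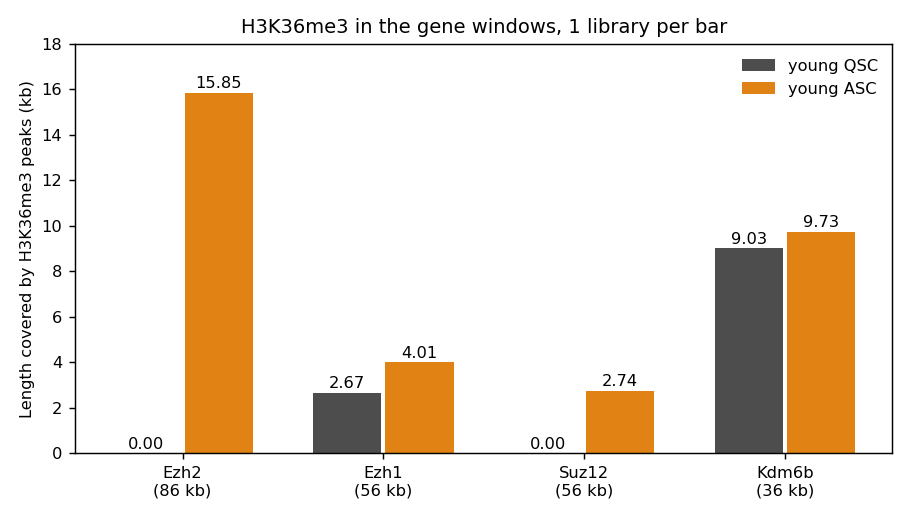
Length in kb covered by H3K36me3 peaks in the window of each gene (window length in brackets) in young QSCs and young ASCs, each bar from 1 library. The windows of Ezh2 and Suz12 go from 0 to 15.85 and 2.74 kb, while that of Kdm6b has 9.03 and 9.73 kb. In the Ezh2 window, 8.88 kb lay beyond the first 10 kb, which are on the side of Cul1. With equal numbers of top-scoring peaks, 1178 bp was left beyond the first 10 kb.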

How the data were processed

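Young and old QSCs and young ASCs were profiled by ChIP-seq in 8 ChIP libraries and 3 input libraries, and the input libraries were not analysed here on their own. Per the labels, reads were aligned with Bowtie to mm9. The authors called peaks per library with MACS against an input library and deposited for each peak a start, an end and a score. Versions, depth and the treatment of duplicate reads are not given in the sources used here. The peak positions are given 1-based.

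Peaks sharing at least 1 bp with a window were taken, and widths, covered lengths inside the window and overlaps were computed in Python 3.11.15 (pandas 2.3.3, numpy 2.4.6). Wilson 95% intervals from scipy 1.17.1 cover counting error only, and figures were drawn with matplotlib 3.10.9. Overlap and coverage counts were tested on simulated data with known answers. All 4 members were named, whatever their values. The members, lists and alternatives were chosen with earlier results of these data known. Eed, Rbbp4, Jarid2, Kdm6a and other genes of the pathway were not located, because the gene table used belongs to GRCm38, from which names, strands and gene order were taken. Alternative settings were a score of at least 100, equal numbers of top-scoring peaks per mark, merging of peaks less than 1 kb apart, windows changed by 10 kb at each end and a minimum overlap of 50% of the shorter of a pair of peaks.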

Additional observations from a re-analysis of the deposited data

How the results depend on the processing

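Of 107 values recomputed under an alternative, 84 stayed within 1.5-fold of the reported value (or, for a share of peaks, within its 95% interval), 22 moved further and 1 changed sign. With peaks less than 1 kb apart merged, the log2 width ratio of young ASCs over young QSCs at Kdm6b turned from -0.24 to 0.71, since merging joined neighbouring peaks in both states. No other width ratio changed sign or moved by over 1.5-fold. With a score of at least 100, H3K36me3 peaks in the windows numbered 2 in young QSCs and 10 in young ASCs, and H3K27me3 peaks 0 in young ASCs and 0 in old QSCs; the H3K36me3 length in ASCs was 9896 bp at Ezh2, 1989 bp at Ezh1 and 942 bp at Suz12, and in QSCs 0 bp at Ezh1. With equal numbers of top-scoring peaks per mark, young ASCs had 8 H3K36me3 peaks covering 8150 bp at Ezh2, 1989 bp at Ezh1 (2669 bp in QSCs) and 942 bp at Suz12, and H3K27me3 peaks numbered 0 in young ASCs and 0 in old QSCs. With windows 10 kb shorter at each end, the ASC H3K36me3 length was 8877 bp at Ezh2 and 1801 bp at Suz12, and old QSCs had 6 H3K4me3 peaks. With windows 10 kb longer, H3K27me3 peaks numbered 1 in young QSCs, 2 in young ASCs and 2 in old QSCs, and young ASCs had 14 H3K4me3 peaks. When an overlap had to cover 50% of the shorter of a pair of peaks, 77.9% of the young QSC H3K4me3 peaks overlapped young ASC peaks. No paired analysis was possible because each cell state and mark had 1 library. Depth is unknown, so a peak missing from a list may have been below its detection limit.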
